A study of Mus musculus with 40 samples.

Results

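IL-10 is the main anti-inflammatory cytokine that macrophages release after bacterial contact, and 6 mRNAs of its feedback arm were followed here in bone marrow-derived macrophages (BMDMs). They are *Il10* itself, its receptor chains *Il10ra* and *Il10rb*, and the repressors *Etv3*, *Nfil3* and *Sbno2*. They were taken by gene symbol from a table of 27179 genes, all 6 were found once, and all 6 passed the filter on low values. BMDMs were grown for 7 days from femur marrow of 4 WT and 4 *Cpeb4*-/- adult male mice on a mixed C57BL/6J and 129 background, with L-cell conditioned medium as the source of M-CSF. They were left untreated (0 hr) or given 10 ng/ml LPS, the endotoxin of the bacterial outer membrane (E. coli 0111:B4), for 1, 3, 6 or 9 hr. Each mouse gave 1 library per time, which made 40 libraries, 4 for each genotype at each time. Neither group carried another allele or agent. The knockout was of the whole animal, so the marrow precursors and the macrophages grown from them lacked CPEB4 alike. CPEB4 is an RNA-binding protein that recognises cytoplasmic polyadenylation elements (CPEs) in 3′-UTRs, and the comparison of genotypes asked how its loss changed mRNA levels along the LPS response.

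IL-10 binds a receptor of a ligand-binding chain, IL-10Rα, and a shared chain, IL-10Rβ, which activate the kinases JAK1 and TYK2 and then the transcription factor STAT3. STAT3 does not silence cytokine genes itself but induces other proteins that do. *Etv3* encodes an ETS-family repressor, *Nfil3* a bZIP repressor that acts on *Il12b*, and *Sbno2* a helicase-family co-repressor, and all are known STAT3-dependent targets of IL-10 in macrophages. *Il10* mRNA is short-lived, since its 3′-UTR holds AU-rich elements (AREs) that recruit the decay factor tristetraprolin, which *Zfp36* encodes.

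Since AREs and CPEs are the elements through which mRNA decay and CPEB4 act, the 3′-UTRs of the 6 mRNAs were searched for them first. In the longest annotated 3′-UTR of each gene (GENCODE M21, build mm10), the letters ATTTA, the core of an ARE, occurred 6 times in the 706 bases of *Il10*, 3 times in the 1693 bases of *Il10ra* and 4 times in the 711 bases of *Il10rb*. They occurred 8 times in the 3504 bases of *Etv3*, once in the 424 bases of *Sbno2*, and were not found in the 269 bases of *Nfil3*. The longer form TATTTAT, which contains ATTTA, was found 4 times in *Il10*, and 1.75% of 21020 3′-UTRs of coding genes, whose median length was 961 bases, held as many. It was found 3 times in *Il10ra* (4.14% of 3′-UTRs held as many), 2 times in *Etv3* (10.4%) and 1 time in *Sbno2* (27.6%). The search was on the transcript strand, counted overlapping matches, and did not match the 3′-UTRs on length.

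The windows below show each TATTTAT of the 4 mRNAs that hold it, with every ATTTA in capitals, because this longer form is the rarer one among 3′-UTRs. *Il10rb*, with 4 ATTTA and no TATTTAT, has no window here. The *Il10* windows lie within the last exon at chr1:131024384-131024413, chr1:131024417-131024446, chr1:131024480-131024509 and chr1:131024826-131024855 of mm10 on the plus strand. Those of *Etv3* lie at chr3:87536685-87536714 and chr3:87539638-87539667 on the plus strand. The *Il10ra* window is chr9:45254113-45254142 and the *Sbno2* window chr10:80057043-80057072, both on the minus strand.
Il10 window 1: ctctctccgaaatATTTAttacctctgata
Il10 window 2: cagttcccattctATTTAttcactgagctt
Il10 window 3: ataattttacagtATTTAttatttttaacc
Il10 window 4: tggccagtttgttATTTAtaaccacctaaa
Il10ra: tttATTTATTTAtttgctcacttATTTAtt
Etv3 window 1: aatcaaaatacatATTTAtgtagcaagatt
Etv3 window 2: cccttgtttttttATTTAttccataattat
Sbno2: ctggtttctatgtATTTAtaatgaactcgt

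The CPE letters TTTTAT, which can overlap an ARE, were found 5 times in *Etv3* (9.54% of 3′-UTRs held as many), 1 time in *Il10rb* (51.6%) and not in the other 4 mRNAs. The form TTTTGT was found 2 times each in *Il10ra* and *Etv3* (34.0% held as many) and 1 time in *Il10rb* (54.3%), and TTTTAAT was found in none of the 6. *Il10*, *Nfil3* and *Sbno2* thus held none of these 3 letter strings in the 3′-UTR searched, which says nothing of CPEs of another spelling or of another 3′ end.

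Promoter sequences (RefSeq, GRCm38.p6, from 250 bases before to 50 bases after a start site) were at hand for *Etv3*, *Nfil3* and *Sbno2*, and they were searched for TTCNNNGAA, the palindrome that STAT proteins bind. The letters were found at 2 of the 3 start sites of *Sbno2* and in neither *Etv3* nor *Nfil3*, whereas 8.3% of 32851 promoters held them on either strand. The *Sbno2* matches began at base −26 from the start site in chr10:80102709-80102738 and at base −24 in chr10:80101192-80101221, both read on the minus strand and shown with the match in capitals.
Sbno2 start 1: gccgcgccccTTCGCAGAAgcggaagtgcg
Sbno2 start 2: ccggctctgcTTCCCGGAAtgcctgtgagt

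*Il10* spans chr1:131019845-131024974 on the plus strand, *Il10ra* chr9:45253837-45269149 on the minus strand, *Il10rb* chr16:91406164-91425834 on the plus strand, *Etv3* chr3:87525407-87540156 on the plus strand, *Nfil3* chr13:52967209-52981073 on the minus strand and *Sbno2* chr10:80056992-80105571 on the minus strand. *Il10rb* shares 569 exon bases (14.9% of the exon bases of all its transcripts) with the read-through gene *Gm21970* of the same strand, so reads there cannot be assigned to one of them. Across genes, r between replicate libraries was 0.992 to 0.998. *Cpeb4* was lower in the *Cpeb4*-/- libraries at 6 hr, where WT libraries ran from 10.09 to 10.67 on the log2 scale and those of *Cpeb4*-/- mice from 8.74 to 9.66. At the other 4 times the *Cpeb4* values of the genotypes overlapped, so there the genotype rests on the labels. All 8 macrophage markers listed (among them *Adgre1*, *Csf1r* and *Cd68*) were expressed, and 7 of 8 lymphocyte markers had a mean below the filter, with *Cd4* as the exception. No cage held mice of both genotypes, so cage and genotype cannot be told apart.

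Values are the authors' regularised log values (rlog), in which a difference of 1 stands for a 2-fold change, library size is taken out, and genes with few reads are drawn towards their mean, so that their changes come out too small. *Il10* rose within 1 hr of LPS, was highest at 3 hr in each of the 8 mice and was back near its untreated level at 9 hr. In WT mice 25, 69, 87 and 88 the *Il10* level was 8.94, 8.76, 8.97 and 8.94 untreated and 11.60, 11.58, 11.15 and 11.11 at 1 hr. This was an increase of 2.46 ± 0.12 (SE of the fit of all WT libraries, adjusted p = 8.6e-13). Within the 4 mice it ran from 2.17 to 2.83 (SD 0.33). All 4 WT values at 1 hr lay above all 4 untreated ones, with mice 25 and 69 apart from 87 and 88. At 3 hr the *Il10* level was 11.74, 11.68, 11.73 and 11.32 in the same mice, and the step from 1 hr did not pass the test (0.25 ± 0.12, adjusted p = 0.073, and 0.044 with the mouse as a block). It was 11.08, 11.37, 11.21 and 11.30 at 6 hr, a fall of 0.38 from 3 hr (SE 0.12, adjusted p = 0.0094) that did not pass the test without WT mouse 25 (−0.28, adjusted p = 0.10) or without WT mouse 87 (−0.33, adjusted p = 0.057). At 9 hr the *Il10* values of 9.15, 9.40, 9.13 and 8.92 overlapped those of untreated cells, and the level had fallen by 2.09 ± 0.12 since 6 hr (adjusted p = 2.5e-11), to 23.5% of it on the rlog scale. The remaining difference from untreated cells was 0.25 ± 0.12 (adjusted p = 0.071, and 0.044 with the mouse as a block), and it passed the test without WT mouse 88 (0.34, adjusted p = 0.017) and under quantile normalization (0.36, adjusted p = 0.014).

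The receptor chains moved less than their ligand. *Il10ra*, which encodes the ligand-binding chain, was highest at 1 hr in all 8 mice. In WT it rose from 12.85 ± 0.036 (SD, n = 4) untreated to 13.80 ± 0.076, an increase of 0.95 ± 0.046 (SE, adjusted p = 8.0e-13), and then declined to 12.81 ± 0.064 at 9 hr, where its values overlapped those of untreated cells. The fall of *Il10ra* from 1 to 3 hr (−0.13 ± 0.046, SE, adjusted p = 0.023) did not pass the test without WT mouse 25, 87 or 88 (adjusted p = 0.12, 0.052 and 0.093). Its fall from 6 to 9 hr (−0.38 ± 0.046, SE, adjusted p = 8.7e-07) was −0.098 under quantile normalization (adjusted p = 0.065). Its level at 9 hr depended on the scaling, since the difference from untreated cells was −0.037 in the rlog (adjusted p = 0.49) and −0.56 under quantile normalization (adjusted p = 3.7e-10). *Il10rb*, whose product also serves the receptors of IL-22 and the type III interferons, spanned only 0.46 between its lowest and highest WT mean. The WT mean of *Il10rb* was lowest at 3 hr, with 12.86 ± 0.048 (SD, n = 4), close to the 12.88 ± 0.040 of untreated cells, and highest at 6 hr, with 13.32 ± 0.027. The step of *Il10rb* from 3 to 6 hr was 0.46 ± 0.039 (SE, adjusted p = 3.2e-09), and 0.21 under quantile normalization. Its higher level at 9 hr than untreated (0.41 ± 0.039, adjusted p = 8.6e-09) turned to −0.14 under quantile normalization (adjusted p = 0.0094), so that direction depends on the scaling.

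The repressors differed in their timing. *Etv3* rose at 1 hr (1.31 ± 0.096, SE, adjusted p = 6.3e-10) and again to its peak at 3 hr (0.87 ± 0.096, adjusted p = 1.2e-07), and had lost most of the rise by 9 hr. What remained of it at 9 hr (0.31 ± 0.096, adjusted p = 0.0063) was −0.12 under quantile normalization. In WT mice 25, 69, 87 and 88 the *Etv3* level was 12.30, 12.33, 12.05 and 12.23 untreated, 14.32, 14.49, 14.26 and 14.57 at 3 hr, and 12.52, 12.66, 12.43 and 12.57 at 9 hr. The WT groups of *Etv3* at 0, 9 and 6 hr did not overlap, and those at 6 and 1 hr did.
*Nfil3* rose late: in WT it went from 9.01 ± 0.065 (SD, n = 4) in untreated cells to 9.42 ± 0.094 after 1 hr and to 11.38 ± 0.042 after 3 hr of LPS. The step of *Nfil3* from 1 to 3 hr was 1.96 ± 0.061 (SE, adjusted p = 2.9e-16), the largest step of the 3 repressors in WT. The step of *Nfil3* from 3 to 6 hr did not pass the test (−0.089 ± 0.061, adjusted p = 0.21) except under quantile normalization (−0.19, adjusted p = 0.011). It then fell by 0.99 ± 0.061 to 9 hr (adjusted p = 6.0e-11).
*Sbno2* hardly moved in the first hour in WT (0.092 ± 0.050, SE, adjusted p = 0.17, and 0.034 with the mouse as a block, with −0.13 under quantile normalization) and then rose by 1.79 ± 0.050 to 3 hr (adjusted p = 6.5e-17). It was highest at 6 hr in all 4 WT mice, at 14.23 ± 0.031 (SD, n = 4). The rise of *Sbno2* from 3 to 6 hr in WT was 0.24 ± 0.050 (SE, adjusted p = 3.0e-04) and was −0.094 under quantile normalization (adjusted p = 0.13). *Sbno2* and *Nfil3* kept a higher level at 9 hr than before LPS, by 1.37 ± 0.050 and 1.29 ± 0.061 (SE), and by 0.88 and 1.34 under quantile normalization.

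The share of all genes called in these WT steps was large, so calls alone say little of the 6 mRNAs. In WT, 5 of 6 passed the test from 0 to 1 hr (all 5 higher, as were 17.3% of the genes tested) against 33.9% of the genes tested in either direction, with *Il10rb* at −0.10 and not called under quantile normalization, 5 from 1 to 3 hr against 60.1%, 5 from 3 to 6 hr against 63.7%, 5 from 6 to 9 hr against 51.4%, and 4 at 9 hr against untreated cells, against 71.5%. In *Cpeb4*-/- BMDMs 6, 6, 4 and 6 passed in the consecutive steps, against 43.8%, 64%, 64.4% and 53.6%, and 3 at 9 hr against untreated cells, against 72.8%. Of all genes called from 0 to 1 hr, 51% were higher in WT and 54.3% in *Cpeb4*-/-, which became 38% and 38.1% under quantile normalization.

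The order of events in *Cpeb4*-/- BMDMs was close to that of WT up to 3 hr. *Il10* rose by 2.03 ± 0.11 (SE of the fit of all *Cpeb4*-/- libraries) in the first hour and by 0.45 ± 0.11 to 3 hr, and *Etv3* by 1.47 ± 0.066 and 0.69 ± 0.066. *Etv3* reached 14.52, 14.47, 14.41 and 14.51 at 3 hr in *Cpeb4*-/- mice 2, 3, 55 and 62, within the range of WT, after 12.29, 12.34, 12.23 and 12.42 in untreated cells. *Nfil3* and *Sbno2* rose by 1.75 ± 0.056 and 1.69 ± 0.039 (SE) between 1 and 3 hr. The peak of *Sbno2* lay at 3 hr in 3 *Cpeb4*-/- mice and at 6 hr in 1, whereas all 4 WT mice had it at 6 hr. At 9 hr *Il10* (0.037 ± 0.11, SE, adjusted p = 0.78) and *Etv3* (0.042 ± 0.066, adjusted p = 0.58) did not pass the test against untreated cells, and *Nfil3* (1.5 ± 0.056) and *Sbno2* (1.31 ± 0.039) were still higher. Under quantile normalization *Etv3* passed as lower than in untreated cells (−0.37, adjusted p = 2.9e-05).

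**Figure D1:**
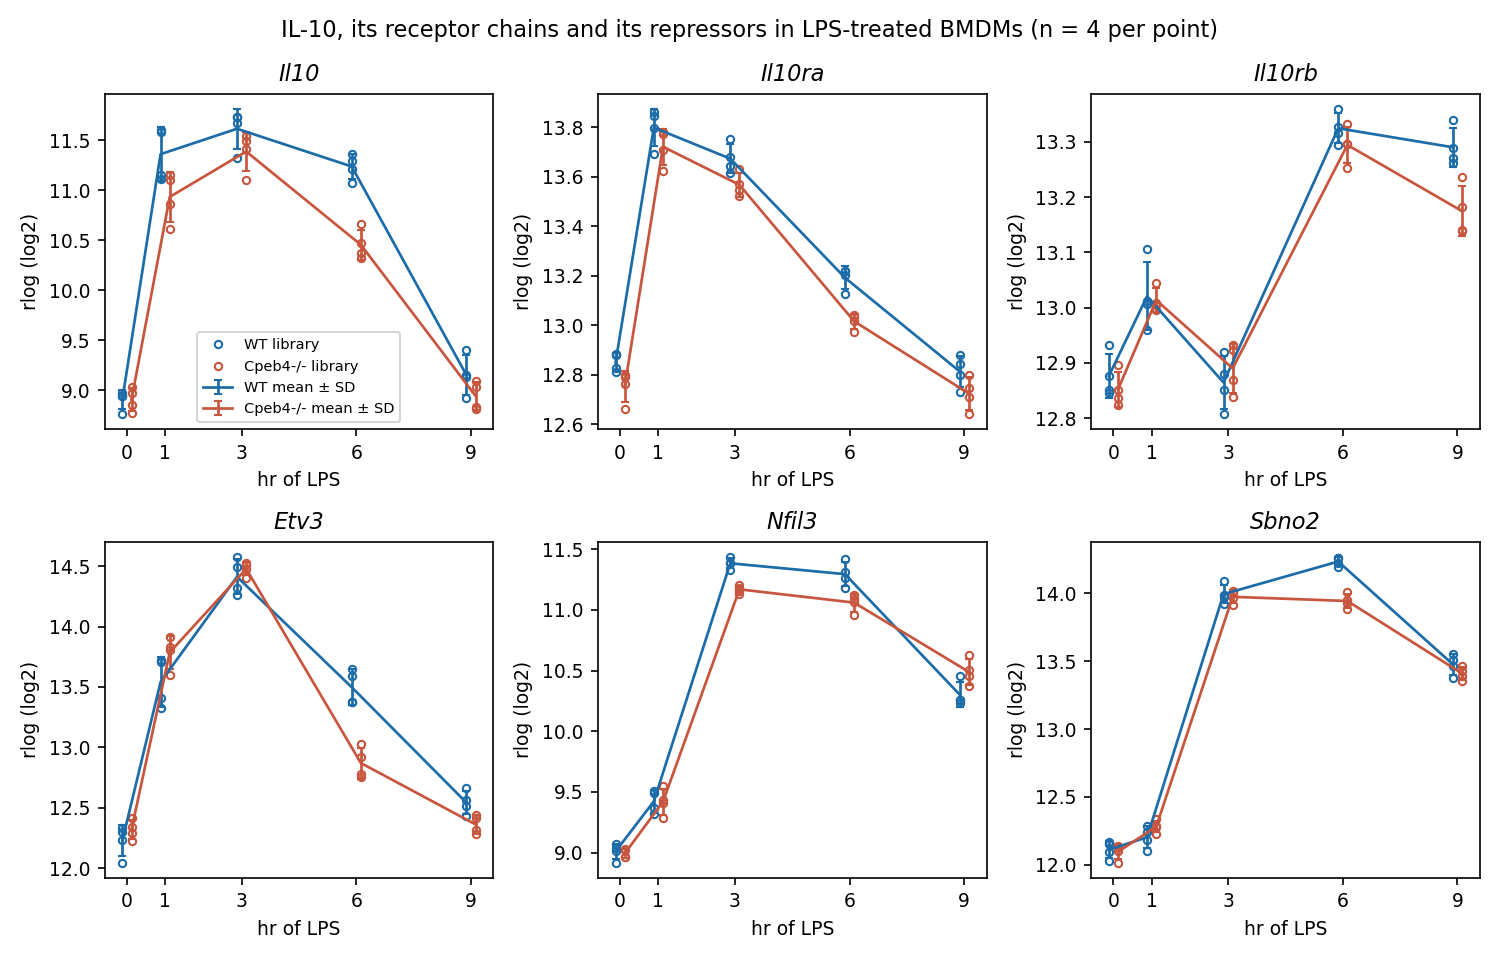
Level of each mRNA (rlog, log2 scale) against hr of LPS in WT (blue) and *Cpeb4*-/- (red) BMDMs, with 1 circle per library and lines through the means ± SD (n = 4). At 6 hr the *Cpeb4*-/- circles lie below all WT circles for each mRNA but *Il10rb*, as in 12% of all genes tested at that time. *Il10* means go from 8.90 untreated to 11.62 at 3 hr in WT and 11.39 in *Cpeb4*-/-.

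To compare levels between the 6 mRNAs, the mean rlog was corrected for exon length (log2 per kb of the exons of coding transcripts in GENCODE M21, which may differ from the annotation the authors counted on). In untreated WT cells the level per kb was 11.99 for *Il10rb* and 11.04 for *Il10ra*, against 9.66 for *Sbno2*, 9.42 for *Etv3*, 8.51 for *Il10* and 7.99 for *Nfil3*. At 3 hr the range had narrowed, with 11.98 for *Il10rb*, 11.87 for *Il10ra*, 11.60 for *Etv3*, 11.54 for *Sbno2*, 11.23 for *Il10* and 10.37 for *Nfil3*. With the exons of all transcripts as the length, an alternative chosen after the values were seen, *Il10rb* came to 10.95 untreated and 10.94 at 3 hr, below the 11.23 of *Il10* and the 11.05 of *Etv3* at 3 hr, and *Sbno2* came to 10.57 at 3 hr. By both lengths the receptor chains had the highest levels per kb of the 6 in untreated WT cells and *Nfil3* the lowest at both times, whereas the place of *Il10rb* at 3 hr depended on the length used.

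At 6 hr of LPS, 5 of the 6 mRNAs were lower in *Cpeb4*-/- than in WT BMDMs: *Il10*, *Etv3*, *Sbno2*, *Nfil3* and *Il10ra*. The *Il10* level was 11.08, 11.37, 11.21 and 11.30 in WT mice 25, 69, 87 and 88 and 10.47, 10.32, 10.66 and 10.37 in *Cpeb4*-/- mice 2, 3, 55 and 62. The lowest WT value of *Il10* was 0.42 above the highest *Cpeb4*-/- value. The difference was −0.78 ± 0.077 (SE, adjusted p = 1.2e-04), so *Il10* was at 58.1% of WT on the rlog scale, and it was −0.84 in batch 1 and −0.72 in batch 2.
*Etv3* was the most changed repressor at this time. Its level was 13.37, 13.65, 13.37 and 13.59 in the WT mice and 12.78, 12.92, 13.03 and 12.75 in the *Cpeb4*-/- mice in the same order, again without overlap. The difference of *Etv3* was −0.63 ± 0.076 (SE, adjusted p = 4.2e-04), with −0.65 in batch 1 and −0.61 in batch 2.
*Sbno2* was 14.23, 14.26, 14.19 and 14.26 in WT and 13.88, 13.95, 14.01 and 13.93 in *Cpeb4*-/- mice, and the 4 WT values of *Sbno2* lay close together above the 4 *Cpeb4*-/- ones. The difference was −0.29 ± 0.041 (SE, adjusted p = 9.6e-04), near −0.30 in batch 1 and −0.28 in batch 2. *Nfil3* was 11.18, 11.31, 11.26 and 11.42 in WT and 10.95, 11.09, 11.13 and 11.07 in *Cpeb4*-/- mice, a narrow gap of 0.057 between the groups. The *Nfil3* difference was −0.23 ± 0.055 (SE, adjusted p = 0.013), and its adjusted p was 0.061 when no filter on low values was used.
Of the receptor chains, *Il10ra* was 13.12, 13.22, 13.20 and 13.22 in WT and 13.03, 13.04, 13.02 and 12.97 in *Cpeb4*-/- mice. This difference of *Il10ra*, −0.18 ± 0.038 (SE, adjusted p = 0.0090), was smaller than those of the ligand and the repressors and did not pass the test under quantile normalization (−0.082, adjusted p = 0.11). *Il10rb* values overlapped, between 13.29 and 13.36 in WT and between 13.25 and 13.33 in *Cpeb4*-/-, with a difference of −0.030 ± 0.036 (SE, adjusted p = 0.63).

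Of the 13039 genes tested at 6 hr, 9.92% were lower and 6.4% higher in *Cpeb4*-/- at an adjusted p under 0.05, 16.3% in all. This excess of lower genes depended on the scaling: under quantile normalization 7.62% were lower and 7.86% higher, and 4 of the 6 mRNAs passed, all lower. The median difference of the 6 mRNAs was −0.26, against −0.015 over all genes tested. All 6 differences were negative in each batch, with *Il10rb* at only −0.0079 in batch 2. At 9 hr, where 0 of the 6 were called, 5 were negative in each batch too, and the share of all genes was not counted. At 6 hr, in 5 of the 6 all 4 *Cpeb4*-/- values lay below all 4 WT values, as in 12% of the genes tested. In the two-sided exact permutation test of 4 against 4 libraries, each of these 5 mRNAs had p = 0.029, the smallest value this design allows.

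**Figure D2:**
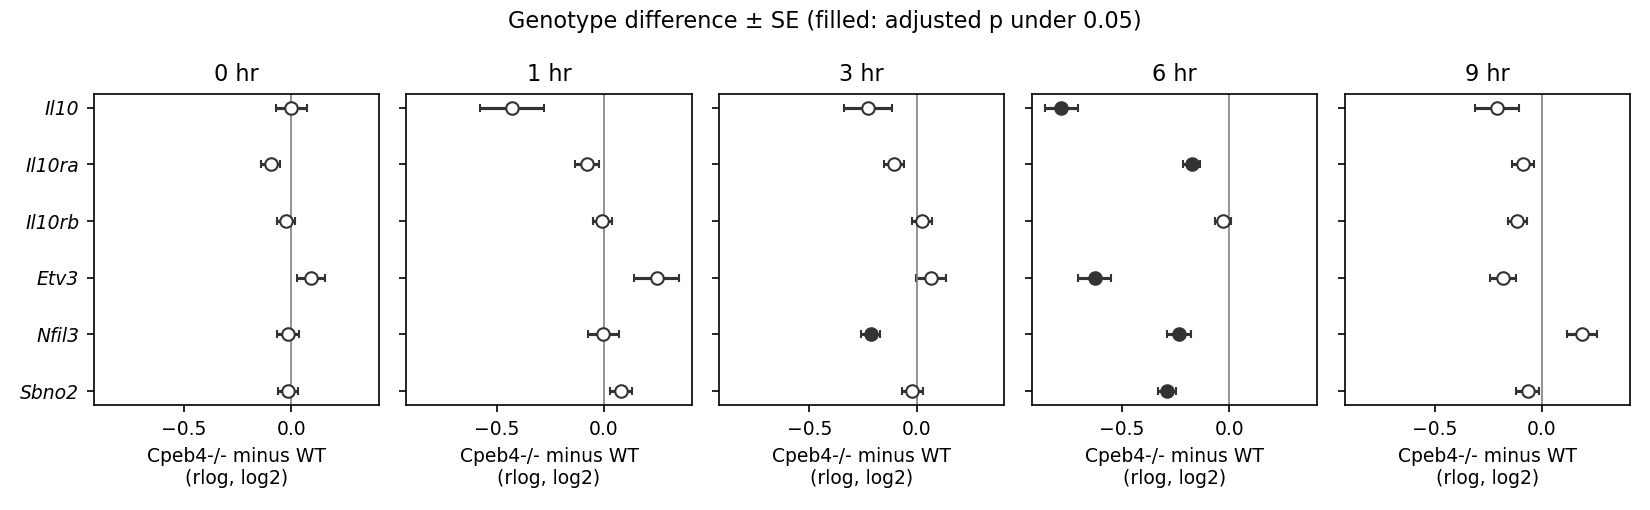
Difference of *Cpeb4*-/- minus WT (rlog, log2 scale) of each mRNA at each time, with the standard error as the bar and filled points for an adjusted p under 0.05 (limma). Filled points stand at 6 hr for 5 mRNAs, from −0.78 for *Il10* to −0.18 for *Il10ra*, and at 3 hr for *Nfil3* at −0.21. Of all genes tested, 9.92% were lower at 6 hr and 1.87% at 3 hr.

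Before 6 hr, when each time was tested alone, *Nfil3* at 3 hr was the only difference of the 6 mRNAs that passed. In untreated cells limma called 0 of the 6, against 1.31% of all genes. At an unadjusted p under 0.05 it found 0 of the 6 and 2306 of the 13095 genes tested. The differences ran from −0.096 for *Il10ra* to 0.093 for *Etv3*. The 4 *Cpeb4*-/- values of *Il10ra* nevertheless all lay below those of WT (two-sided exact permutation test p = 0.029), by a gap of 0.012, as did 5.04% of the genes tested.
At 1 hr *Il10* was 11.16, 10.61, 10.86 and 11.10 in *Cpeb4*-/- mice 2, 3, 55 and 62, a range that reached into that of WT through WT mice 87 and 88. The difference of −0.43 ± 0.15 (SE, adjusted p = 0.098) did not pass the test, with −0.49 in batch 1 and −0.36 in batch 2. That of *Etv3* was of opposite sign at 0.25 ± 0.10 (SE, adjusted p = 0.13). Limma called 0 of the 6 at 1 hr, against 1.91% of all genes. At an unadjusted p under 0.05 it found 2, *Il10* and *Etv3*, and 4631 of the 13118 genes tested. In the fit of all 40 libraries, whose estimate of the spread is shared over times, both passed, with adjusted p = 0.0095 for *Il10* and 0.023 for *Etv3* with the mouse as a block, but that fit called 33% of all genes at 1 hr.
At 3 hr only *Nfil3* passed, against 3.68% of all genes in either direction and 1.87% lower. It was 11.33, 11.43, 11.39 and 11.39 in WT mice 25, 69, 87 and 88 and 11.18, 11.16, 11.13 and 11.21 in *Cpeb4*-/- mice 2, 3, 55 and 62, all below WT, as in 6.58% of the genes tested. The *Nfil3* difference of −0.21 ± 0.043 (SE, adjusted p = 0.029) lost its call in 9 of 17 alternatives, among them leaving out any mouse but WT mouse 88 (adjusted p = 0.056 to 0.10), while its size stayed between −0.23 and −0.20 in these. *Il10* at 3 hr was −0.23 ± 0.11 (SE, adjusted p = 0.25), and without WT mouse 88, which was lower than the other 3, it was −0.33 (adjusted p = 0.033), in a fit that called 19.8% of all genes.

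At 9 hr limma called 0 of the 6, against 7.91% of all genes (4.69% higher, 3.22% lower). At an unadjusted p under 0.05 it found 3, *Etv3*, *Il10rb* and *Nfil3*, and 3503 of the 13008 genes tested. The *Il10* difference was −0.21 ± 0.10 (SE, adjusted p = 0.22), between means of 9.15 ± 0.20 (SD, n = 4) for WT and 8.94 ± 0.14 (SD, n = 4) for *Cpeb4*-/-. *Etv3* was −0.18 ± 0.061 (SE, adjusted p = 0.093) and *Sbno2* −0.067 ± 0.052 (SE, adjusted p = 0.43). *Nfil3* stood apart by its sign: its values were 10.23, 10.46, 10.26 and 10.26 in WT and 10.51, 10.37, 10.45 and 10.63 in *Cpeb4*-/- mice, a difference of 0.19 ± 0.070 (SE, adjusted p = 0.12). *Il10rb* was 13.27, 13.34, 13.29 and 13.26 in WT and 13.14, 13.18, 13.24 and 13.14 in *Cpeb4*-/- mice, a difference of −0.12 ± 0.045 (SE, adjusted p = 0.14). Its *Cpeb4*-/- values lay below all WT values, as did those of 8.51% of the genes tested. In the fit of all 40 libraries with the mouse as a block, *Nfil3* (adjusted p = 0.019) and *Il10rb* (adjusted p = 0.012) passed, as did 18.1% of all genes.

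Whether the genotype difference itself changed with LPS was tested as a genotype by time interaction over all 40 libraries. At 6 hr against untreated cells, 3 of the 6 passed, *Etv3* (−0.72 ± 0.12, SE, adjusted p = 5.2e-04), *Il10* (−0.78 ± 0.17, adjusted p = 0.0092) and *Sbno2* (−0.28 ± 0.061, adjusted p = 0.0098), against 2.94% of all genes. Of all genes called there 30.6% had a positive interaction, and 44.9% under quantile normalization. *Etv3* passed in each of the 13 alternatives. *Il10* did not pass without *Cpeb4*-/- mouse 62 (−0.77, adjusted p = 0.053), and *Sbno2* did not pass without *Cpeb4*-/- mouse 2, 3 or 62 or WT mouse 88 (adjusted p = 0.050 to 0.083) or under quantile normalization (−0.16, adjusted p = 0.27). *Nfil3* was −0.22 ± 0.082 (SE, adjusted p = 0.16, and 0.049 with the mouse as a block, a fit that called 7.88% of all genes). *Il10ra* (−0.080 ± 0.061, adjusted p = 0.59) did not pass, and *Il10rb* (−0.0058 ± 0.047, adjusted p = 0.97) was near 0. The genotype difference of *Il10ra* was −0.096 in untreated cells and −0.18 at 6 hr, so the latter was not shown to depend on LPS. At 1, 3 and 9 hr limma called 0 of the 6 in each case, against 0.00763%, 0.206% and 1.76% of all genes. At an unadjusted p under 0.05 it found 1, 1 and 2 of the 6, and 206, 659 and 1569 of the 13103 genes tested.

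After its peak at 3 hr, *Etv3* fell further by 6 hr in *Cpeb4*-/- than in WT BMDMs, and *Sbno2*, which rose in WT over this step, did not pass the test there in *Cpeb4*-/-. Under quantile normalization the step of *Sbno2* was −0.094 in WT (adjusted p = 0.13) and −0.30 in *Cpeb4*-/- (adjusted p = 2.5e-06). From 3 to 6 hr *Etv3* fell by 0.84 to 0.98 in the 4 WT mice and by 1.38 to 1.76 in the 4 *Cpeb4*-/- mice, to 53.1% and 32.8% of the 3-hr level on the rlog scale. *Il10* fell by 0.022 to 0.66 in the WT mice and by 0.75 to 1.12 in the *Cpeb4*-/- mice. *Sbno2* rose in all 4 WT mice over this step (by 0.17 to 0.27) and in 1 of the 4 *Cpeb4*-/- mice, with a mean change of −0.031 ± 0.096 (SD, n = 4). The share of all genes whose mice separate by genotype over this step was not counted, so these ranges alone do not set the 3 mRNAs apart.
The difference of the step, a test added after these values were seen, was −0.69 ± 0.12 for *Etv3* (SE, adjusted p = 0.0022), −0.27 ± 0.061 for *Sbno2* (adjusted p = 0.022) and −0.56 ± 0.17 for *Il10* (adjusted p = 0.13, and 0.022 with the mouse as a block), against 0.923% of all genes and 2.99% with the block. Of the genes called there 52.9% had a positive difference, 63.3% under quantile normalization and 41.1% with the block. The call of *Sbno2* was lost under quantile normalization (−0.20, adjusted p = 0.18) and without any of *Cpeb4*-/- mice 2, 3 and 62 and WT mice 25 and 88 (adjusted p = 0.079 to 0.14).
From 6 to 9 hr the order was the other way for all of the mRNAs but *Il10rb*, which fell by 0.12 in *Cpeb4*-/- and 0.034 in WT. That difference of the step did not pass (−0.085 ± 0.047, SE, adjusted p = 0.43). The steps from 3 to 6 and from 6 to 9 hr share the 6-hr libraries, so they are not independent. *Nfil3* fell by 0.86 to 1.16 in the WT mice and by 0.44 to 0.72 in the *Cpeb4*-/- mice, a difference of the step of 0.42 ± 0.082 (SE, adjusted p = 0.0041). Without *Cpeb4*-/- mouse 62 this was 0.38 (adjusted p = 0.051). *Etv3* (0.45 ± 0.12, adjusted p = 0.044) and *Sbno2* (0.22 ± 0.061, adjusted p = 0.048) also passed and *Il10* did not (0.57 ± 0.17, adjusted p = 0.073, and 0.012 with the mouse as a block), against 1.92% of all genes and 5.62% with the block. The calls of *Etv3* and *Sbno2* in this step were lost in 10 and 11 of 13 alternatives, including leaving out 7 of the 8 mice for *Etv3* and each of the 8 for *Sbno2*. From 1 to 3 hr limma called 0 of the 6, against 0.13% of all genes. At an unadjusted p under 0.05 it found 1, *Nfil3*, and 1035 of the 13103 genes tested.

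**Figure D3:**
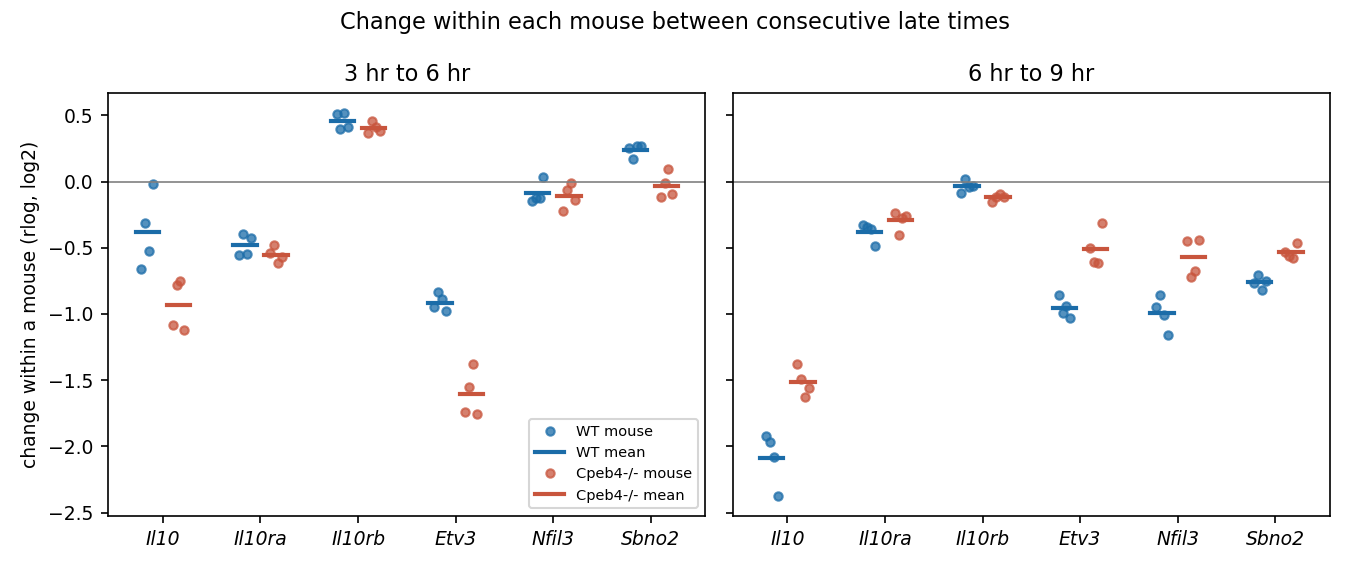
Change of each mRNA within a mouse (rlog, log2 scale) from 3 to 6 hr (left) and from 6 to 9 hr (right), with 1 point per mouse and a bar at the mean of the 4 WT (blue) or 4 *Cpeb4*-/- (red) mice. On the left the *Etv3* means are −0.91 in WT and −1.61 in *Cpeb4*-/-, and on the right the *Nfil3* means are −0.99 in WT and −0.57 in *Cpeb4*-/-.

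The 6 mRNAs fell into 3 patterns over the 40 libraries, described here by Pearson's r across libraries that share mice and times. *Nfil3* and *Sbno2* followed each other most closely (r = 0.98), and *Il10* went with *Etv3* (r = 0.92) and *Il10ra* (r = 0.89). *Il10rb* followed none of them, with r from −0.30 (*Il10ra*) to 0.48 (*Sbno2*). Among 13102 other genes, *Il10* was most like *Cdkn1a*, which encodes the cell cycle inhibitor p21 (r = 0.97), *Ik* (r = 0.96) and *Noct* (r = 0.96). *Etv3* was most like *Tpbg* (r = 0.97), the NOD-signalling kinase gene *Ripk2* (r = 0.97) and the Wnt receptor gene *Fzd5* (r = 0.96), and *Il10ra* most like *Fam133b* (r = 0.97), *Icam4* (r = 0.97) and *Mob3c* (r = 0.96). *Nfil3* was most like *Zup1*, *Sema4c* and *Cemip2* (r = 0.99 for each). *Sbno2* was most like *Abtb2* (r = 1.00), *Cemip2* and *Slfn8* (r = 0.99 for each), so *Cemip2* was among the 3 nearest genes of both repressors. *Il10rb* was most like *Ubap1* (r = 0.98), *Rnf185* and the adaptor gene *Grb2* (r = 0.95 for each).

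Around these 6, the genes that carry or read the IL-10 signal were described at 6 hr by lists from general knowledge of the pathway. At that time 9.92% of all genes tested were lower and 6.4% higher in *Cpeb4*-/-. Of 5 signalling genes, 3 were lower in *Cpeb4*-/-: the receptor kinase gene *Tyk2* (−0.41 ± 0.063, SE, adjusted p = 0.0014), *Stat3* (−0.21 ± 0.056, adjusted p = 0.023) and the feedback inhibitor gene *Socs3* (−0.20 ± 0.046, adjusted p = 0.014). None was higher, and the median of the list was −0.20 against −0.015 over all genes tested. Of 14 genes that IL-10 induces in macrophages, 5 were lower and 2 higher, with a median of −0.071. *Il4ra*, a chain of the IL-4 receptor, was at −0.48 ± 0.053 (SE, adjusted p = 2.4e-04), the MAPK phosphatase gene *Dusp1* at −0.40 ± 0.071 (adjusted p = 0.0031), and the Fc receptor gene *Fcgr1* at −0.28 ± 0.050 (adjusted p = 0.0037). *Ddit4*, an inhibitor of mTORC1 that IL-10 induces, went the other way, at 0.82 ± 0.090 (SE, adjusted p = 2.3e-04). The other genes of this list that passed were *Zfp36* and *Socs3*, lower, and *Hmox1*, higher.

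Among 15 genes tied to *Il10* transcription, 4 were lower and 3 higher at 6 hr, against 9.92% and 6.4% of all genes. The median of the list was −0.0015. *Prdm1*, which encodes BLIMP-1, was at −0.35 ± 0.066 (SE, adjusted p = 0.0046), the kinase gene *Map3k8* upstream of ERK at −0.33 ± 0.068 (adjusted p = 0.0067), and *Maf*, a bZIP activator of *Il10*, at −0.22 ± 0.045 (adjusted p = 0.0074). *Sp3* was higher, at 0.22 ± 0.047 (SE, adjusted p = 0.0086). The other genes of this list that passed were *Mapk3*, lower, and *Atf1* and *Nfkb1*, higher. At 9 hr 2 of these 15 passed, the AP-1 gene *Fos* (0.40 ± 0.082, SE, adjusted p = 0.018) and *Atf1* (0.21 ± 0.052, adjusted p = 0.033). Both were higher, as were 4.69% of all genes.
Of 11 other cytokines and receptors of the IL-10 family, 2 passed the filter on low values, while *Ifnl2*, *Ifnl3* and *Il22ra1* were listed at 0 in every library. The cytokine *Il19* was lower in *Cpeb4*-/- at 6 hr (−0.40 ± 0.078, SE, adjusted p = 0.0050) and at 9 hr (−0.89 ± 0.19, adjusted p = 0.019). The receptor chain gene *Il20rb* was higher at 6 hr (0.32 ± 0.061, SE, adjusted p = 0.0050).

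The 12 genes that IL-10 is known to repress did not move together at 6 hr. In *Cpeb4*-/-, 4 were higher and 3 lower, against 6.4% and 9.92% of all genes, and the median of the list was 0.057. *Il12a* was at 0.94 ± 0.20 (SE, adjusted p = 0.0079), *Il23a* at 0.68 ± 0.16 (adjusted p = 0.014) and *Il6* at 0.48 ± 0.13 (adjusted p = 0.021), and *Csf3* was the other gene that was higher. *Il12b*, which encodes the p40 subunit that IL-12 and IL-23 share and is a target of the *Nfil3* repressor, was lower, at −0.53 ± 0.16 (SE, adjusted p = 0.045), as were *Cd86* and *Tnf*. At 9 hr *Il12a* was higher (1.11 ± 0.23, SE, adjusted p = 0.017) and *Tnf* lower (−0.46 ± 0.10, adjusted p = 0.024), and of the induced genes *Il4ra* (−0.40 ± 0.070, adjusted p = 0.0092) and *Fcgr1* (−0.31 ± 0.070, adjusted p = 0.026) were lower. At 9 hr none of the 5 signalling genes passed in limma, where 7.91% of all genes did (4.69% higher, 3.22% lower).

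**Figure D4:**
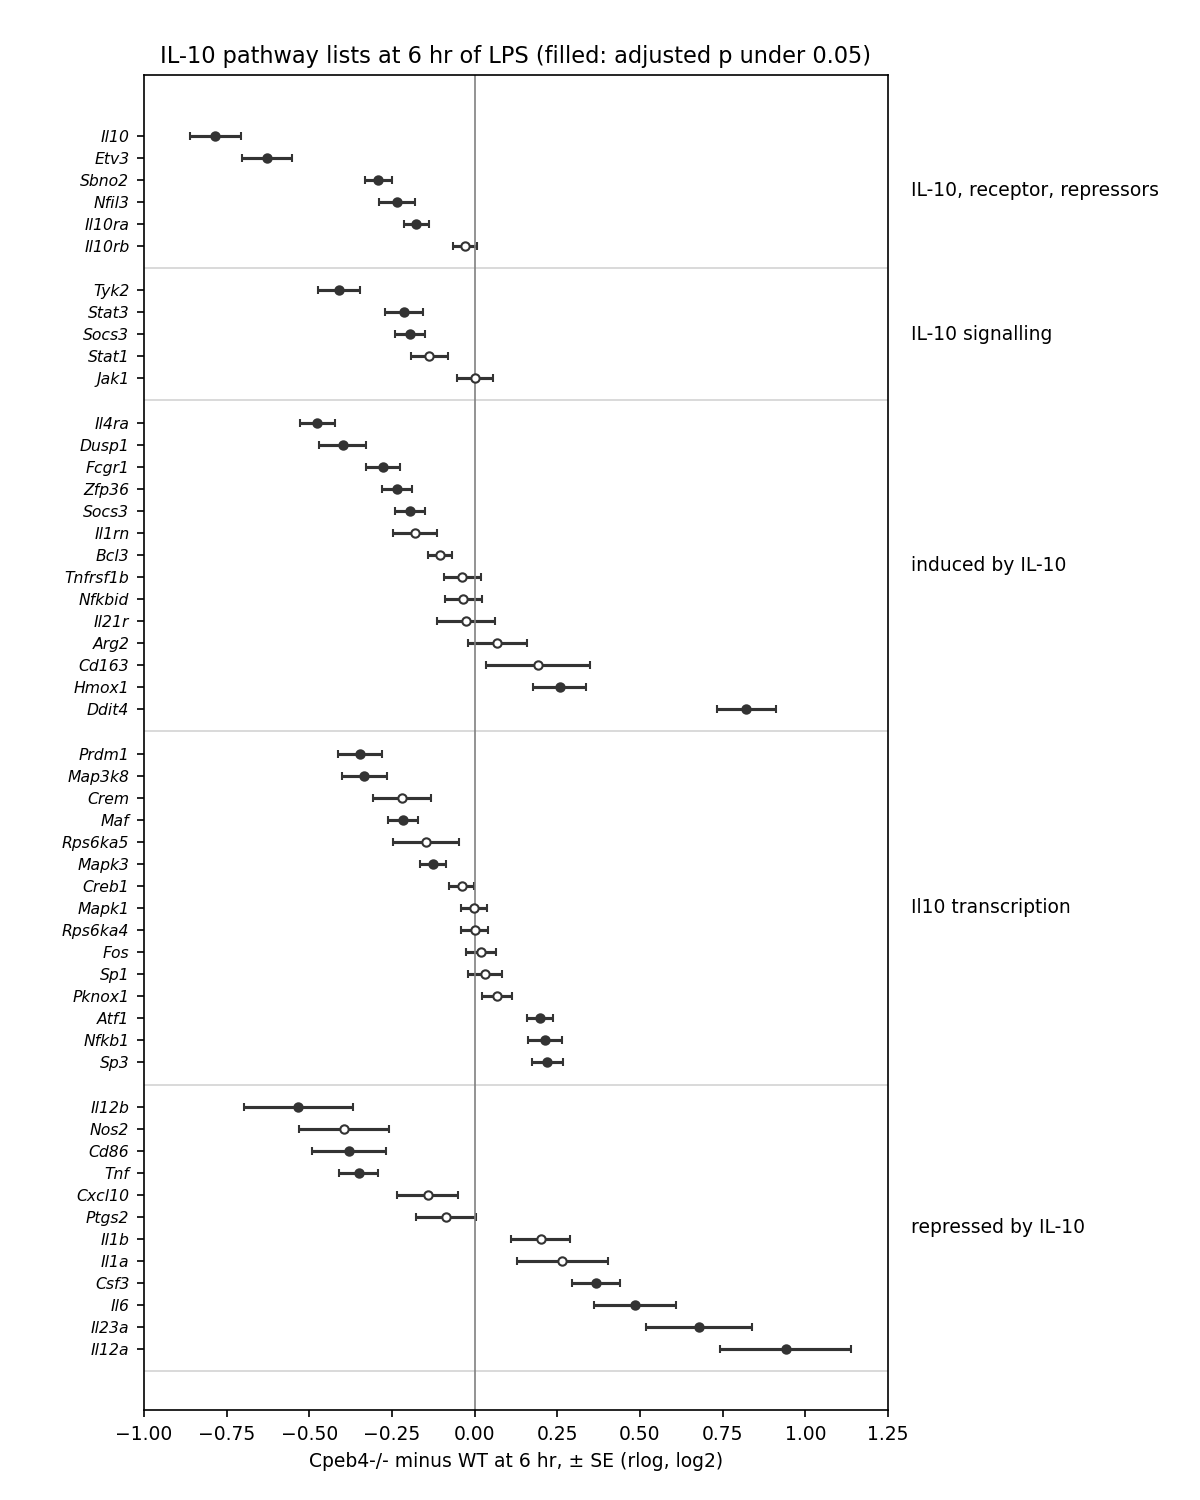
Difference of *Cpeb4*-/- minus WT at 6 hr (rlog, log2 scale, bars are standard errors) for the 6 mRNAs and 4 lists of IL-10 pathway genes, sorted within each list, with filled points for an adjusted p under 0.05 (limma). Filled points lie on the negative side for the 6 mRNAs (5 of 6) and signalling genes (3 of 5) and on either side for the other lists, from −0.53 for *Il12b* to 0.94 for *Il12a* among repressed genes. *Socs3* is in 2 lists, and of all genes tested at 6 hr 9.92% were lower and 6.4% higher.

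Markers of the macrophages themselves moved at 6 hr as well. Of 8 macrophage markers 4 were lower in *Cpeb4*-/- (*Lyz2*, *Cd68*, *Csf1r* and *Fcgr1*), against 9.92% of all genes tested. The median difference of the 8 was −0.25, near that of the 6 mRNAs. The summed level of the 8 markers (log2 of the sum) ran from 19.24 to 19.32 in WT and from 18.92 to 19.14 in *Cpeb4*-/- libraries at 6 hr, and from 18.98 to 19.29 and 18.65 to 18.91 in untreated cells. *Lyz2* weighs most in this sum, since it averaged 18.24 over the 40 libraries, against 15.94 for the next marker, *Adgre1*. Of 8 neutrophil precursor markers, 4 had a mean below the filter (*Ly6g*, *Mpo*, *Elane* and *Prtn3*). The 4 that could be tested averaged 6.34 (*S100a8*), 5.11 (*S100a9*), 3.57 (*Ngp*) and 3.38 (*Camp*), and 0 of them passed at 6 hr in limma. The summed level of all 8 at 6 hr ran from 7.54 to 8.05 in WT and from 7.64 to 7.95 in *Cpeb4*-/-. The sums at 6 hr ran from 6.54 to 6.61 in WT and 6.08 to 6.39 in *Cpeb4*-/- for lymphocyte markers (*Cd4*, the 1 tested of 8, was lower), from 7.21 to 7.53 and 7.19 to 7.29 for dendritic cell markers (*Xcr1*, of 4 tested of 6, was lower), and from 3.86 to 4.45 and 4.08 to 4.77 for stromal markers, of which the 1 tested of 5 was not called. The part of these shifts in the lower levels of the 6 mRNAs was not tested. In bulk RNA, fewer cells that express a gene and less RNA per cell cannot be told apart.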

How the data were processed

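Poly(A) RNA of the 40 BMDM libraries was amplified for 8 cycles with a kit that does not mark strand. The authors aligned reads to mm10 with STAR 2.3.0e, counted them per gene with featureCounts and deposited rlog values of DESeq2, which are log2 values corrected for library size and shrunken where counts are low. Read counts were not used here and depth cannot be read from these values, so no counting interval is given. The table holds 27179 genes, of which 6395 are at 0 in every library, and 0 value columns were left unused. No pair of libraries holds identical values.

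Genotypes were compared at each time, LPS steps within a genotype and genotype by time interactions over all libraries with moderated linear models (limma 3.58.1, R 4.3.3; lmFit and eBayes, trend on). Genes entered a test if their rlog averaged log2 of 5 or more over its libraries. Every adjusted p in the text is limma's, corrected over all genes tested (Benjamini-Hochberg), and a call is one under 0.05. For single values, all 70 splits of 4 against 4 libraries gave a two-sided exact permutation p (smallest 0.029). The study's own test, DESeq2 on counts, was not repeated. Each mouse gave all 5 times, and this pairing showed in the values: after removal of group means, the median r was 0.29 between times of the same mouse (over 0.1 in 68 of 80 pairs) and −0.091 between different mice. Each of the 2 batches, as labelled, held 2 mice of each genotype, and the 8 mice came from 6 cages. In comparisons at a single time, p-values measure the spread between these mice. In fits over several times without the mouse as a block, libraries of the same mouse are treated as separate.

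The members and gene lists were chosen with earlier results of these data known, and the tests of consecutive steps were added after the values were seen. The genes named are the 6 members, *Cpeb4*, up to 4 called genes with the largest difference per list at 6 and at 9 hr, and the 3 genes most correlated with each member. One list gene is not reported here. Other called list genes, the macrophage markers and *Gm21970* were named after their values or overlaps were seen. Alternatives were no filter or one at a mean rlog of 5, values recomputed as log2 of (2 to the rlog, plus 1), eBayes without trend or robust, a batch covariate, a joint fit of the 40 libraries (mouse as a block or not), quantile normalization, and leaving out each mouse. The fit of genotypes at 6 hr was tested on simulated data. Python 3.11.15 with scipy 1.17.1, numpy 2.4.6, pandas 2.3.3 and matplotlib 3.10.9 was used for the other steps.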

Additional observations from a re-analysis of the deposited data

Results flagged for a closer look

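In 60 groups of 4 libraries (6 mRNAs, 2 genotypes, 5 times), 3 held a library far from the other 3 by Dixon's test, and chance gives about 1 in 20 groups. *Il10* in untreated WT cells was 8.76 in mouse 69 against 8.94 to 8.97 in the others. *Il10* at 3 hr was 11.32 in WT mouse 88 against 11.68 to 11.74. *Nfil3* at 9 hr was 10.46 in WT mouse 69 against 10.23 to 10.26.

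The genotype difference changed with time, by the interaction in limma, for *Il10* (−0.78), *Etv3* (−0.72) and *Sbno2* (−0.28) at 6 hr against untreated cells. It changed from 3 to 6 hr for *Etv3* (−0.69) and *Sbno2* (−0.27), and from 6 to 9 hr for *Nfil3* (0.42), *Etv3* (0.45) and *Sbno2* (0.22). These contrasts share the 6-hr libraries.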

How the results depend on the processing

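The 5 calls at 6 hr kept their direction in all 17 alternatives, and 100 of 102 values of the 6 mRNAs kept their side of the threshold. At 1 hr the number of members called went from 0 to 2 (*Il10*, *Etv3*) in the fit of all 40 libraries, both without and with the replicate block, which called 31.9% and 33% of all genes in place of 1.91%. At 9 hr it went from 0 to 2 (*Nfil3*, *Il10rb*) in the same fits, which called 17.4% and 18.1% in place of 7.91%. At 3 hr it went from 1 to 0 with eBayes without trend and with batch as a covariate, and ranged from 0 to 2 when each mouse was left out (2 without WT mouse 88, where 19.8% of all genes were called). The interaction at 6 hr against untreated cells ranged from 1 to 3 calls over left-out mice (1 without *Cpeb4*-/- mouse 62). For the step from 3 to 6 hr it was 1 under quantile normalization in place of 2, and 1 to 2 over left-out mice. For the step from 6 to 9 hr it was 1 in place of 3 without a filter, with eBayes without trend and under quantile normalization, and 0 to 2 over left-out mice, 0 without *Cpeb4*-/- mouse 62. The replicate block also added *Il10* to the calls of these steps, and it changed no other call than those given beside the results. Quantile normalization turned the sign of 10 LPS steps that were called in either scaling: in WT *Il10rb* at 1 hr against untreated (−0.10), *Sbno2* from 3 to 6 hr (−0.094), *Il10rb* from 6 to 9 hr (0.23) and *Il10rb* (−0.14) and *Etv3* (−0.12) at 9 hr against untreated, and in *Cpeb4*-/- *Il10rb* (−0.11) and *Sbno2* (−0.028) at 1 hr against untreated, *Il10rb* from 6 to 9 hr (0.091), and *Il10rb* (−0.23) and *Etv3* (−0.37) at 9 hr against untreated. *Cpeb4*-/- cells at 9 hr against untreated then had 5 calls in place of 3. It also turned *Sbno2* at 1 hr in WT (−0.13), called in neither. The cause of these changes was not tested. Of 1596 differences under alternatives, 1509 kept direction and side of the threshold. Shrinkage in the rlog makes differences of weakly expressed genes too small.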
